A study of Mus musculus with 12 samples.

Results

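The zinc finger genes described here are those of the gene count table whose symbols read Zkscan or Zscan plus a number, or Zfp plus a number of 3 digits that starts with 9, and that had at least 10 counts in at least 3 of 12 retinal libraries. Of 91 such symbols, 77 met the count rule, out of 50559 genes in the table. They comprise 56 Zfp, 11 Zkscan and 10 Zscan genes. The group was chosen by these symbols and counts and by the high level of Zkscan16 after APB5 plus minocycline, so the levels in that group are a description of the members. Counts of members past a threshold in comparisons with it are printed beside the share of all genes, and nothing is read from them.

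The libraries came from whole retinas of C57BL/6J wild-type mice of mixed sex, collected at postnatal day 28, with 3 libraries in each of 4 groups. APB5 is a rat monoclonal antibody that blocks mouse PDGFRβ, the receptor through which pericytes are recruited to growing retinal vessels. APB5 mice received 30 µg of it under the skin at day 1, and IgG mice received the same amount of a rat isotype control. IgG+Mino and APB5+Mino mice were additionally given minocycline, a tetracycline that dampens microglial activity, at 45 mg/kg daily from day 5 to day 27. APB5 was given once and systemically, so the blockade was not limited to the retina and was not renewed before collection. The labels do not say whether a library was 1 mouse or a pool, so the p-values measure the spread between these libraries.

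KRAB zinc finger proteins read DNA through tandem fingers, each folded around a zinc ion by a pair of cysteines and a pair of histidines. Their KRAB domain binds TRIM28, which brings in the histone methyltransferase SETDB1, and the best known targets of this silencing are transposable elements and imprinted loci. The SCAN domain is a protein interaction module through which zinc finger proteins pair with one another, and many SCAN proteins carry no functional KRAB domain. KRAB zinc finger genes multiplied by tandem duplication, so neighbouring copies are often nearly alike.

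The predicted proteins of the members were sorted by their domains. Of the 76 members found by symbol in the GENCODE vM39 annotation of GRCm39, 55 matched the KRAB domain and 19 matched the SCAN domain at no less than 70% of the conserved positions searched. Zkscan16 and Zkscan5 matched both, and Zfp956, Zfp996, Zscan2 and Zscan30 matched neither. A score under this limit does not show that a domain is absent, so KRAB and SCAN members here mean members with a match. The symbols tracked the matches in part, since 53 of 55 annotated Zfp members had a KRAB match and 19 of 21 Zkscan or Zscan members had a SCAN match. The number of fingers ranged from 0 to 21, with a median of 11 in KRAB members and 7 in SCAN members. KRAB members were poor in G and C, with a median of 39.1% of transcript bases, against 47.8% in SCAN members and 47.4% over all annotated genes.

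The fingers below are shown because they are the part of each protein that reads DNA, for the 3 members that passed both limits of a call with APB5+Mino. Each is the first finger of its protein, 84 bases long, with the codons of its zinc-binding cysteines and histidines in capitals. Zkscan16 lies on chromosome 4 from 58943568 to 58962621 on the plus strand, and its finger is exonic at chr4:58957172-58957255. The Zkscan8 finger lies at chr13:21704855-21704938 on the minus strand and the Zscan22 finger at chr7:12640655-12640738 on the plus strand, all in GRCm39.
Zkscan16: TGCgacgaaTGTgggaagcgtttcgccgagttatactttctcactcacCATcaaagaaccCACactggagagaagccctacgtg
Zkscan8: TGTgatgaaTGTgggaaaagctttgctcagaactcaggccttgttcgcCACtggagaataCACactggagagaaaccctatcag
Zscan22: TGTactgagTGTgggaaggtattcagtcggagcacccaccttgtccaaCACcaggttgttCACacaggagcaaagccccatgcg
The spacing of the capitals was the same in the 3 fingers, while the bases between the cysteine and histidine pairs, which encode the DNA-contacting residues, differed.

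The members were also compared for sequence that reads could not assign to 1 gene. In windows of 50 bases, the length of the reads, a median of 17.1% of the transcript was shared with another gene in KRAB members and 0.722% in SCAN members. More than 50% was shared in 18 members, and under 5% in 33. How reads that match several genes were counted is not stated in the sources used here, so values of the highly shared members are uncertain. Zfp991 and Zfp992, both on chromosome 4, show this, since 6 of their 11 fingers were identical and the others differed at 1 base each. Their first fingers, at chr4:147263348-147263431 and chr4:146551004-146551087 on the plus strand of GRCm39, are printed with the differing base in capitals.
Zfp991: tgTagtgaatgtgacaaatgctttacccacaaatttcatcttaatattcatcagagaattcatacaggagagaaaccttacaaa
Zfp992: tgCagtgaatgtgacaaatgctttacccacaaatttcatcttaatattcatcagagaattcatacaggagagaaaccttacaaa
Zfp965 and Zfp973 on chromosome 2 were identical in the 5 fingers compared. The SCAN members Zkscan3 and Zkscan4 on chromosome 13 had 2 to 22 differing bases in each of 7 fingers and shared 11.6% and 12.7% of their windows. Zkscan16 shared 0% of its windows with any other gene.

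The members lay on 14 chromosomes, and 42 of the 76 sat in 8 groups of at least 3 members with gaps of no more than 500000 bases. The largest groups held 10 KRAB members each, on chromosome 17 and on chromosome 4 from 146533480 to 147932882. A group of 5 SCAN members on chromosome 13, from 21546978 to 21715290, held Zscan12, Zkscan3, Zscan26, Zkscan4 and Zkscan8. The 14 symbols left out by the count rule reached 10 counts in no more than 1 library, among them Zscan4a to Zscan4f, genes of the early embryo, which had 0 or 1 count at most. At the edge of the rule, Zfp978 had its highest count at 17 and met the minimum in 4 libraries, whereas Zfp987 had a highest count of 21 but met it in 1 library only.

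The level of the members was next read from the counts. Library totals were 52740545 to 59411044 counts, and levels are given as CPM (the count of a gene relative to the total of its library) scaled by the TMM method. The mean level over the 12 libraries ran from 0.120 CPM in Zfp978 to 118 CPM in Zscan26, with a median of 11.4 CPM. Per kilobase of transcript, the scale on which genes can be compared, Zscan26 was again the highest at 26.7 and the median was 3.34 over 76 members. Zkscan2 and Zkscan1, both SCAN members, had the next highest levels in CPM, from 52.8 to 164 CPM and from 30.0 to 95.2 CPM across the libraries. Zfp978, Zfp972 and Zfp967 had the lowest, with at most 0.420 CPM in any library, and 3 counts corresponded to about 0.05 CPM.

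The libraries differed in ways that bear on these levels. Rod markers were abundant in every library, as in retina, but their summed level was 12490 CPM in APB5 replicate 3 and 47250 to 72699 CPM in the others. APB5 replicate 3 also had a microglia and macrophage marker sum of 186 CPM against 8.95 to 34.7 CPM elsewhere. Its pigment epithelium sum was 425 CPM against 37.5 to 115 CPM. Some results that include this library are therefore also given without it. Where no such second value is printed, the result of an APB5 comparison includes it. Of 4 pericyte markers, Pdgfrb and Rgs5 differed between APB5 and IgG by 0.60 and 0.69 on the log2 scale. Kcnj8 and Abcc9 differed by -0.50 and -0.098. Rgs5 lay wholly above IgG, at 87.9 to 164 against 67.2 to 74.0 CPM. Kcnj8 lay wholly below, at 2.06 to 3.09 against 3.49 to 3.94 CPM, and none of the 4 passed the call in edgeR. Xist, the RNA of the inactive X chromosome, had 47210 to 141589 counts in all 3 libraries of IgG and in replicate 3 of both APB5 and APB5+Mino, and 5 to 38 counts in the other libraries. In whole tissue, fewer cells of a type and less RNA per cell cannot be told apart.

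Summed over the 77 members, the level was highest in the APB5+Mino libraries, at 1496, 1633 and 1605 CPM. It was 1364, 1301 and 1017 CPM in IgG, 1267, 1269 and 1240 CPM in IgG+Mino, and 1166, 1319 and 963 CPM in APB5. The APB5+Mino libraries did not overlap with any other group, whereas the other groups overlapped with one another. The lowest sums were in APB5 replicate 3 and IgG replicate 3, the libraries with the lowest and the highest rod marker sum, and the part of cell composition in these levels was not tested. Of the 77 members, 44 had their highest group mean in APB5+Mino, which is 57.1%, beside 33.4% of the 21364 genes that met the same count rule. By domain, these were 29 of 55 KRAB members and 14 of 19 SCAN members.

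**Figure D1:**
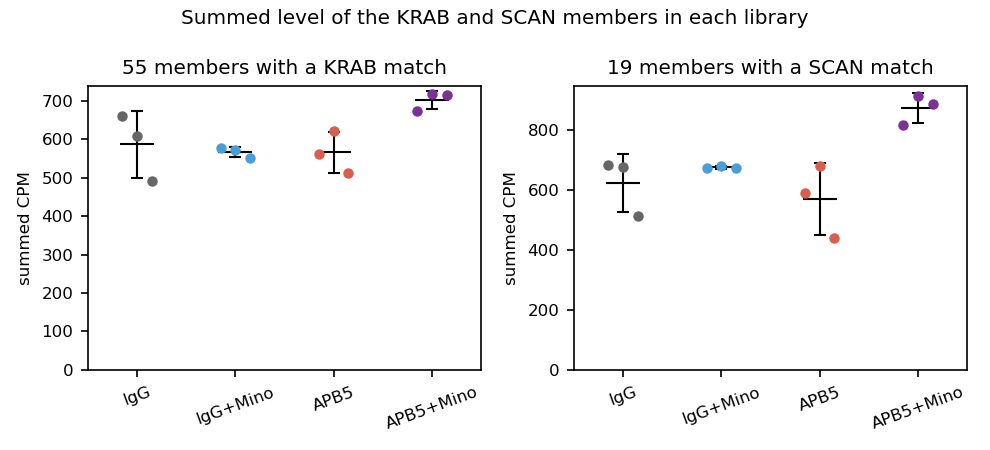
Summed TMM-scaled level in CPM (vertical axis) of the members with a KRAB match (left) and with a SCAN match (right), by group on the horizontal axis. Each point is 1 library and the bars are the mean ± SD of 3. The APB5+Mino libraries lie at 674 to 717 CPM for KRAB and 816 to 913 CPM for SCAN members, above all other libraries.

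The comparison of APB5 with IgG asks how an early block of pericyte recruitment altered the retina of 4 weeks. It was not used to choose the members. None of the 77 members passed the call, which required an adjusted p of no more than 0.05 in edgeR's quasi-likelihood test and a fold change of 1 or more on the log2 scale, and 0% of the 20350 genes tested did. The smallest adjusted p of a member was 0.664. DESeq2 called 0 members as well, beside 0.388% of all genes called higher and 0.0393% called lower. At an unadjusted p under 0.05, 2 members were higher and 0 lower, beside 5.22% and 2.01% of all genes. The log2 fold change was above 0 in 35 of 77 members, beside 49.7% of all genes. The median log2 fold change was -0.056 over the members and -0.0025 over all genes, and without APB5 replicate 3 it was 0.058 and -0.00038.

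The members with the smallest p in this comparison were Zfp992 and Zfp991, KRAB members of the chromosome 4 group with near-identical fingers. Zfp992 had 1.35, 0.913 and 0.829 CPM in IgG and 2.82, 1.64 and 3.30 CPM in APB5. Its groups did not overlap, with a log2 fold change of 1.33 ± 0.36 (SE, edgeR adjusted p = 0.66) and of 1.12 without APB5 replicate 3. Zfp991 had 6.485, 5.79 and 3.89 CPM in IgG and 7.61, 9.18 and 12.1 CPM in APB5, with a log2 fold change of 0.84 ± 0.27 (SE, edgeR adjusted p = 0.66). Again every APB5 library lay above every IgG library, by a small margin between the nearest of them. These genes share 51.3% and 54.6% of their windows with each other. Their values may therefore not be independent, depending on how reads that match both were counted.

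Of all members, 6 had APB5 libraries wholly above IgG and 4 wholly below, beside 7.84% and 7.86% of all genes. Without APB5 replicate 3 these were 13 above and 5 below, beside 11.5% and 12.5%, and 48 of 77 members had a log2 fold change above 0, beside 49.9%. The others above were Zfp996, Zfp981, Zfp948 and Zfp977, the last named after its values were seen. Zfp996 is annotated as a transcribed processed pseudogene of 324 bases with 0 fingers, and lay at 0.0880 to 0.403 CPM in IgG and 0.506 to 0.715 CPM in APB5. The members wholly below were Zscan2, Zscan29, Zfp930 and Zfp940. Zscan2, which has 14 fingers and no SCAN match, had 13.4, 14.9 and 14.0 CPM in IgG and 11.9, 12.1 and 8.54 CPM in APB5, a log2 fold change of -0.37 ± 0.18 (SE, edgeR adjusted p = 0.66) and of -0.22 without APB5 replicate 3. Zscan29 had 56.4, 53.2 and 65.9 CPM in IgG and 48.8, 50.1 and 16.5 CPM in APB5, with a log2 fold change of -0.60 ± 0.38 (SE, edgeR adjusted p = 0.71). Its low value was that of APB5 replicate 3, without which the log2 fold change was -0.24. The chromosome 4 group had 8 of 10 members above 0, with a median of 0.40, whereas the SCAN group of chromosome 13 had 1 of 5 above 0.

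**Figure D2:**
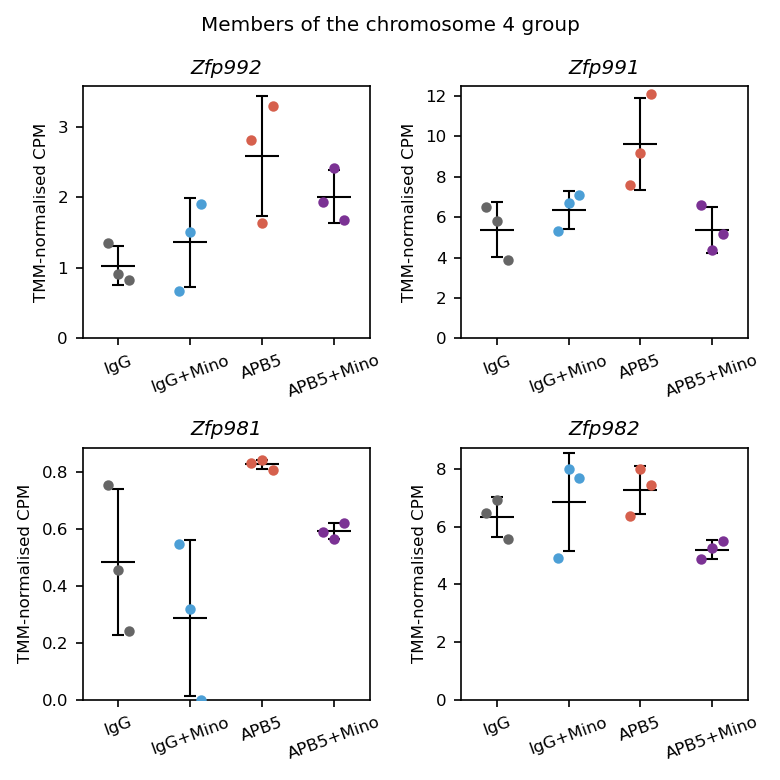
TMM-scaled CPM (vertical axis) of 4 KRAB genes of the chromosome 4 group by treatment group (horizontal axis), 1 point per library with the mean ± SD of 3. Zfp992 and Zfp991 lie higher in APB5 than in IgG, at 1.64 to 3.30 against 0.829 to 1.35 CPM and at 7.61 to 12.1 against 3.89 to 6.485 CPM, and neither passed the call.

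A fit of all 12 libraries with Xist as a covariate called 1 member higher and 1 lower in APB5 than in IgG, beside 4.99% and 0.584% of all genes in the same fit. Zfp991 then had a log2 fold change of 1.01 ± 0.28 (SE, edgeR adjusted p = 0.049) and Zscan29 of -1.20 ± 0.33 (SE, edgeR adjusted p = 0.047). In a fit of all 12 libraries without the covariate, they had log2 fold changes of 0.84 and -0.60 at edgeR adjusted p of 0.22 and 0.40. The IgG libraries all had high Xist counts and 2 of 3 APB5 libraries did not, so sex differed in part between these groups. Only APB5 and APB5+Mino held both high and low Xist libraries, and replicate 3 was the high one in each. The covariate fit is not given without APB5 replicate 3, the library with outlying marker sums, so its part in these calls was not tested.

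Minocycline without APB5 was examined by comparing IgG+Mino with IgG. None of the 76 members tested passed the call in edgeR, beside 0.0199% of 20143 genes called higher and 0.00993% called lower. None did in DESeq2, beside 0.0645% higher and 0.0496% lower. The smallest adjusted p was 0.585, and at an unadjusted p under 0.05 there were 3 members higher and 2 lower, beside 4.98% and 3.39% of all genes. The log2 fold change was above 0 in 39 of 76 members, beside 48.6% of all genes. The median log2 fold change was 0.0099 over the members and -0.010 over all genes. Members whose IgG+Mino libraries lay wholly above IgG numbered 4, beside 6.88% of all genes, and 2 lay wholly below, beside 7.48%. All IgG+Mino libraries had low and all IgG libraries high Xist counts, and the Y-linked counts were the reverse. Minocycline and sex therefore cannot be told apart in this comparison.

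The members above were Zfp965, Zkscan17, Zkscan3 and Zfp935. Zkscan3, a SCAN gene known as a repressor of autophagy genes, had 29.2, 31.2 and 29.0 CPM in IgG and 40.5, 35.0 and 34.1 CPM in IgG+Mino. Its log2 fold change was 0.30 ± 0.12 (SE, edgeR adjusted p = 0.58). Zkscan17 had 37.0, 40.1 and 39.8 CPM in IgG and 48.7, 47.4 and 49.5 CPM in IgG+Mino, a log2 fold change of 0.33 ± 0.11 (SE, edgeR adjusted p = 0.58). These groups were tight and separate, but such separations were as common among all genes. Zfp965, with a log2 fold change of 0.86, shared 100% of its windows with other genes. Zfp975 and Zkscan6 lay wholly below IgG, at log2 fold changes of -0.58 and -0.18.

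The remaining comparisons hold the APB5+Mino libraries by which the group was chosen. Zkscan16, one of the 2 members that matched both domains, had 33.5, 37.8 and 38.5 CPM in APB5+Mino, from a count of up to 2042 reads. It had 19.5, 19.7 and 12.01 CPM in IgG, 14.7, 14.6 and 13.2 CPM in IgG+Mino, and 12.02, 15.9 and 19.1 CPM in APB5. Every APB5+Mino library lay above every other library, and the other 3 groups overlapped. The group means were 36.6 ± 2.70 CPM in APB5+Mino, 17.1 ± 4.38 in IgG, 15.7 ± 3.57 in APB5 and 14.2 ± 0.862 in IgG+Mino (SD, n = 3 libraries). The log2 fold change was 1.22 ± 0.18 (SE) against APB5, 1.39 without APB5 replicate 3, and 1.37 ± 0.10 (SE) against IgG+Mino. Against IgG, neither single treatment separated from it, with log2 fold changes of -0.12 ± 0.26 (SE, edgeR adjusted p = 0.91) for APB5 and -0.26 ± 0.20 (SE, edgeR adjusted p = 0.69) for IgG+Mino.

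Against APB5, 3 members of 76 tested passed the call in APB5+Mino, all of them higher, beside 0.843% of 20281 genes called higher and 0.819% lower. They were Zkscan16, Zkscan8 and Zscan22. Zkscan8 had 28.9, 40.9 and 24.5 CPM in APB5 and 62.0, 76.4 and 72.7 CPM in APB5+Mino, which gave a log2 fold change of 1.16 ± 0.20 (SE). In the remaining groups it had 25.2 to 42.7 CPM in IgG and 31.3 to 44.4 CPM in IgG+Mino. Zscan22 had 11.04, 11.3 and 8.52 CPM in APB5 and 20.003, 20.5 and 22.3 CPM in APB5+Mino, which gave a log2 fold change of 1.02 ± 0.14 (SE). Both genes lay above every library of the other groups in all 3 APB5+Mino libraries.

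The count of 3 changed with the libraries in the fit, and so did that of all genes. With the replicate number as a block it was 0, beside 0% of all genes called higher, and it was 0 without APB5 replicate 1 or without any 1 of the APB5+Mino libraries, beside 0% in each of these fits. It was 10 without APB5 replicate 2, beside 3.57%, and 2 without APB5 replicate 3, beside 2.04%. At an adjusted p of no more than 0.05 and any fold change, 6 members were higher and 0 lower, beside 2.79% and 2.03% of all genes. The added members were Zscan18 at a log2 fold change of 0.98 ± 0.15 (SE), Zfp942 at 0.66 ± 0.11 and Zfp958 at 0.71 ± 0.13. Zscan18 had 16.5, 21.1 and 15.3 CPM in APB5 and 31.9, 35.8 and 36.9 CPM in APB5+Mino. Its level in IgG was 15.3 to 22.4 CPM and in IgG+Mino 20.3 to 23.3 CPM, so that the APB5+Mino libraries again stood above the rest. Zscan18 overlaps annotated genes on the opposite strand, and whether the counting used the strand is not stated.

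**Figure D3:**
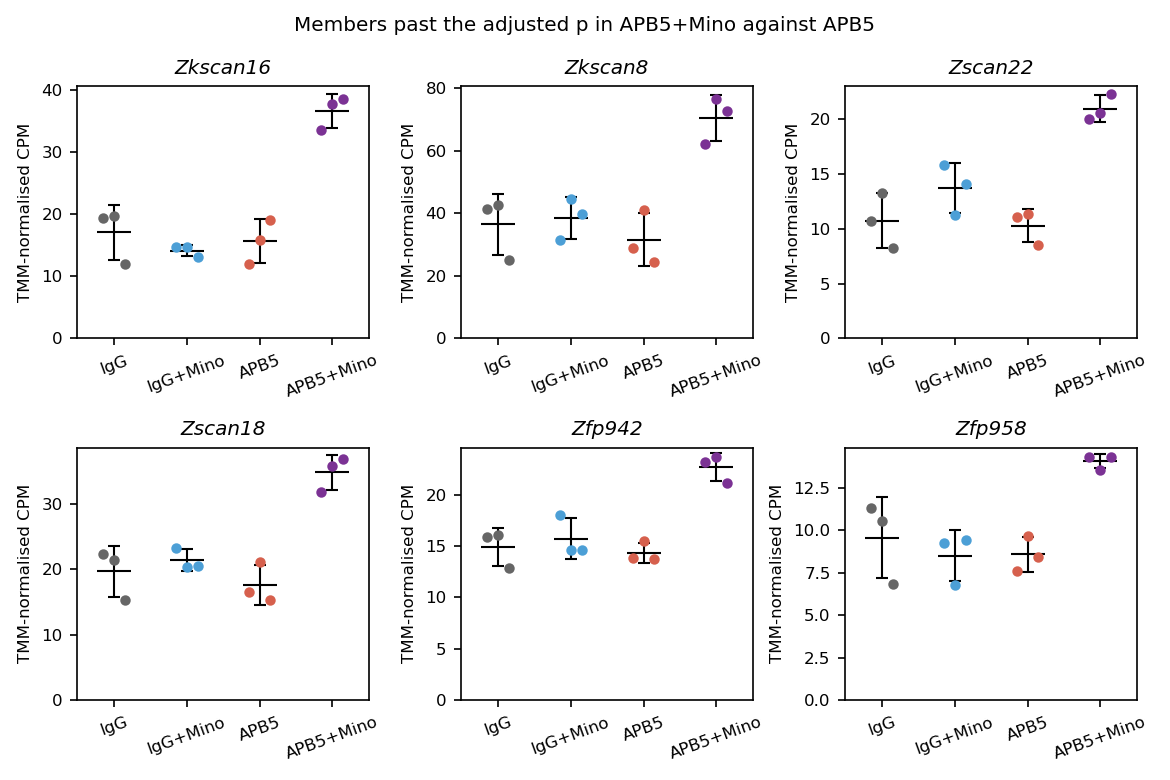
TMM-scaled CPM (vertical axis) of the 6 members past an adjusted p of 0.05 in APB5+Mino against APB5, by group (horizontal axis), 1 point per library with the mean ± SD of 3. In each panel the APB5+Mino libraries lie above all others, from 13.6 to 14.3 CPM for Zfp958 to 62.0 to 76.4 CPM for Zkscan8.

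Members that were not called were also compared by library. APB5+Mino libraries lay wholly above APB5 in 34 members (44.7%) and wholly below in 6, beside 23.2% and 23.3% of all genes. At any size, 52 of 76 members were above 0, beside 48.5%. The median log2 fold change was 0.26 over the members, 0.51 over SCAN members and 0.21 over KRAB members, and -0.021 over all genes. Without APB5 replicate 3 these medians were 0.15, 0.35, 0.12 and -0.0054, and 36 members lay wholly above and 13 wholly below, beside 27.9% and 28.2%. The 33 members with under 5% shared windows had a median of 0.22, with 17 wholly above. The 321 tested Zfp genes outside the group had a median of 0.38 and lay wholly above in 53.9%, a larger share than that of the members. With an offset for the GC content and length of transcripts, chosen after the data were seen, the median of the members was 0.17. Beside these values, all 6 microglia and macrophage markers lay wholly below APB5, with a median log2 fold change of -2.82, as did 3 of 4 pericyte markers, with a median of -0.62, and the pigment epithelium markers had a median of -1.09. The microglia and macrophage sum was 27.9 to 186 CPM in APB5 and 8.95 to 10.98 CPM in APB5+Mino, and the part of these cells in the result was not tested.

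**Figure D4:**
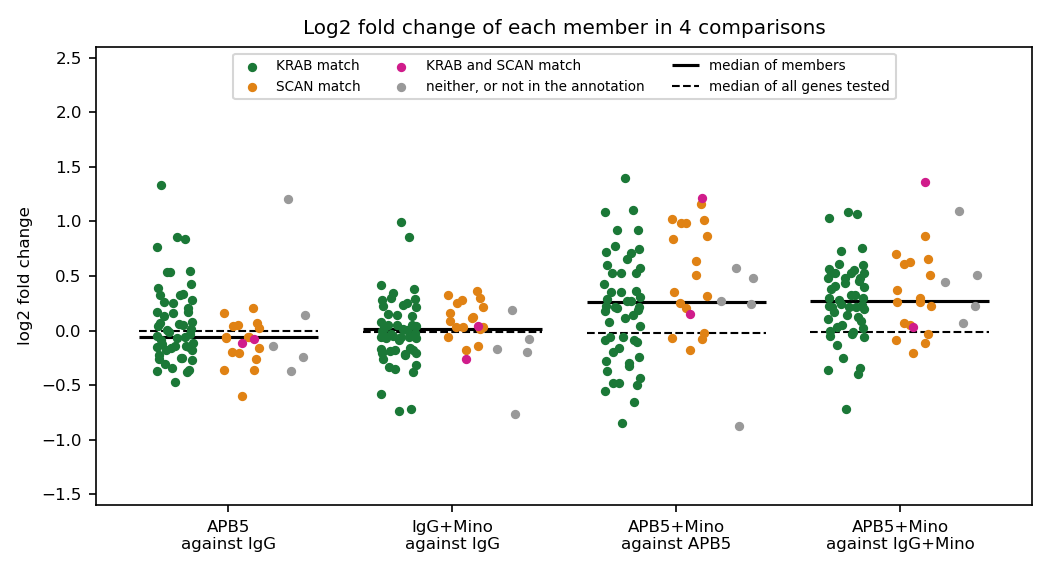
Log2 fold change (vertical axis) of each member in 4 comparisons (horizontal axis), colored by domain match, with the median of the members (solid line) and of all genes tested (dashed line). The solid line lies near the dashed line in both comparisons without APB5+Mino, at -0.056 and 0.0099, and above it in the others, at 0.26 and 0.27.

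In the chromosome 4 group, 2 of 9 members tested were above 0, with a median log2 fold change of -0.37, and none passed the call or an adjusted p of 0.05. APB5+Mino lay wholly below APB5 in 3 of them and wholly above in 2, beside 23.3% and 23.2% of all genes. Those above were Zfp933 at 0.57 and Zfp984 at 0.29, named after their values were seen. Zfp991 had 6.59, 4.37 and 5.16 CPM in APB5+Mino, wholly below its APB5 libraries at 7.61 to 12.1 CPM, with a log2 fold change of -0.84 ± 0.24 (SE). Zfp982 of the same group had 6.38, 7.99 and 7.42 CPM in APB5 and 4.88, 5.25 and 5.50 CPM in APB5+Mino, which gave a log2 fold change of -0.48 ± 0.16 (SE). Zfp934 on chromosome 13, Zfp995 on chromosome 17 and the pseudogene Zfp996 were also wholly below, at -0.65, -0.55 and -0.88. The APB5 libraries enter this comparison and that with IgG, so opposite values of Zfp991 in them are not independent. The SCAN group of chromosome 13 had 4 of 5 members above 0 with a median of 0.51, and Zscan26, the most abundant member, was at 62.5 to 118 CPM in APB5 and 143 to 154 CPM in APB5+Mino.

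Against IgG+Mino, the control that shares the drug, the 1 member past the call in APB5+Mino was Zkscan16, by which the group was chosen, beside 0.888% of 20049 genes called higher and 0.354% lower. The count was 0 without APB5+Mino replicate 2, with all 12 libraries in the fit and with the Xist covariate, beside 0% of all genes each time, and 2 without IgG+Mino replicate 2, beside 0.94%. At any fold change, 15 members were higher and 0 lower, beside 4.8% and 3.28% of all genes. Libraries of APB5+Mino lay wholly above in 35 members (46.1%) and wholly below in 1, Zfp934, beside 18% and 17.2%, and 61 of 76 were above 0, beside 48.9%. The median log2 fold change was 0.27 over the members, 0.26 over both KRAB and SCAN members, 0.23 over the other Zfp genes and -0.0092 over all genes. Zkscan8 had a log2 fold change of 0.87 ± 0.14 (SE), Zscan18 of 0.70 ± 0.10, Zfp958 of 0.72 ± 0.15 and Zfp974 of 0.56 ± 0.11. Beside these values, the rod marker sum was 47250 to 50976 CPM in APB5+Mino and 61296 to 64660 CPM in IgG+Mino, and the microglia and macrophage sum was 8.95 to 10.98 and 15.8 to 19.5 CPM, and their part in the result was not tested.

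The difference between the antibody effect with and without minocycline was fitted over all 12 libraries. None of the 77 members passed the call for this interaction in edgeR, beside 0% of 21228 genes higher and 0.0141% lower, with 18 members higher and 3 lower at an unadjusted p under 0.05, beside 8.06% and 9.08% of all genes, and DESeq2 called 3 higher, beside 0.735% of all genes. The interaction was above 0 in 55 members, beside 48.1% of all genes. Zkscan16, chosen for its level in APB5+Mino, had an interaction of 1.49 ± 0.28 (SE, log2). The median was 0.37 over the members and -0.026 over all genes. Without APB5 replicate 3 the median of the members was 0.19.

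The partners of KRAB proteins were read from lists of known cofactors. Trim28, the scaffold that KRAB domains bind, had group means of 157 to 171 CPM and log2 fold changes of -0.12, -0.06, 0.09 and 0.04 in the 4 comparisons of groups, with overlapping libraries in each. Setdb1, the methyltransferase it recruits, had 36.6, 40.8 and 29.5 CPM in APB5 and 56.5, 60.7 and 61.6 CPM in APB5+Mino, which gave a log2 fold change of 0.74 ± 0.13 (SE). It lay at 37.7 to 44.8 CPM in IgG and 38.7 to 42.5 CPM in IgG+Mino, so that it stood above all other libraries in APB5+Mino, as Zkscan16 did. Of the 13 corepressor genes, 0 passed the call in any comparison. At any fold change, 1 was higher against APB5 and 2 against IgG+Mino, beside 2.79% and 4.8% of all genes. In the comparisons of APB5 and of IgG+Mino with IgG, 0 corepressor genes passed at any fold change in edgeR. At an unadjusted p under 0.05 there were 0 with APB5, beside 5.22% of all genes higher and 2.01% lower. With IgG+Mino there were 1 higher, Chd3 at 0.29, and 1 lower, Hdac2 at -0.26, beside 4.98% and 3.39%. The 4 genes of the HUSH complex, which silences with SETDB1, had 3 wholly above in APB5+Mino against APB5, beside 23.2% of all genes, and a median log2 fold change of 0.47. The other, Pphln1, was at -0.22, and at -0.34 and wholly below without APB5 replicate 3. SCAN genes outside the symbols of this group had 10 of 12 tested, of which 1 passed the call higher against APB5, beside 0.843% of all genes, with a median of 0.62. Scand1, a SCAN gene without fingers, lay wholly below APB5 at -0.66 ± 0.13 (SE).

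Promoters were compared for short motifs in windows of 300 bases around the start sites, taken from RefSeq on GRCm38.p6. The table held 77 windows for 64 of the members and 32851 windows in all, 21263 of them of protein-coding genes, and windows of 1 gene can overlap. The motif CCGGAAG, a core of ETS factor sites, was searched on both strands and stood in 31.2% of the member windows, 44.4% of those of SCAN members and 30.2% of those of KRAB members. It stood in 8.86% of all windows and in 11.6% of those of protein-coding genes. The motif TATAAA stood in 1.30% of the member windows and 13.6% of all. TGACGTCA, the cyclic AMP response element, was in 3.90% and 1.79%, GCCATNTT, a core of YY1 sites, in 5.19% and 6.05%, and the NRF1 motif in 0% and 4.60%. The windows below are shown for members that moved together with APB5+Mino, with the matches in capitals. They are Zkscan8 at chr13:21531065-21531364 on the minus strand, where matches on both strands overlap, Zfp958 at chr8:4612920-4613219 on the plus strand, and the first window of Zscan18 at chr7:12803589-12803888 on the minus strand.
Zkscan8: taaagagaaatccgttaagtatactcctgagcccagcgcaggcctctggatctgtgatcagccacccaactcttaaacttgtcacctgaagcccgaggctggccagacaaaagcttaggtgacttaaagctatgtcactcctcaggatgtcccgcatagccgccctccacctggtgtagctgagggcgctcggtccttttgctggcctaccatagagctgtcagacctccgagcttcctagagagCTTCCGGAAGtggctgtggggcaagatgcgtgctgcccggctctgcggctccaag
Zfp958: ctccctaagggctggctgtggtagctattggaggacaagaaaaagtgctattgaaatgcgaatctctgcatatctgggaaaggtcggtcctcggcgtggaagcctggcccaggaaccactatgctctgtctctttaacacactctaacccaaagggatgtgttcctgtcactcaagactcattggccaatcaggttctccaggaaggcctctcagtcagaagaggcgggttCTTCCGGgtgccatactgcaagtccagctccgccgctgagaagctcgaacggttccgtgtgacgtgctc
Zscan18: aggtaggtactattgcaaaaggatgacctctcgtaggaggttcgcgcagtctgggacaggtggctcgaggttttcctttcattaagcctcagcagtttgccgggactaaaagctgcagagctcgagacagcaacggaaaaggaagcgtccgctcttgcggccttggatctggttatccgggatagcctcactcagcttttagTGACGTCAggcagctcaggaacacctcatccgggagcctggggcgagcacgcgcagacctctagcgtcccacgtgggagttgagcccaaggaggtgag
The Zkscan8 and Zfp958 windows carry the ETS motif and the Zscan18 window carries the cyclic AMP element instead. The windows of Zscan22 and Zfp942 held none of the 5 motifs. These matches describe the letters of the windows only.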

How the data were processed

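RNA of 12 retinal libraries was measured by strand-specific poly-A sequencing with single-end reads. The authors aligned the reads with the DRAGEN pipeline to mm39 with the NCBI annotation, after bcl2fastq 2.20, and deposited raw counts per gene. The strand setting and the treatment of reads matching several genes are not given in the sources used here, and 3 repeated columns were not used. Tables of the authors' own comparisons, which hold fold changes and p-values, were not used.

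Groups were compared with edgeR 4.0.16 (quasi-likelihood test, TMM scaling, filterByExpr) in R 4.3.3, with the 6 libraries of each pair of groups, or all 12 for the interaction, and Benjamini-Hochberg adjustment over all genes tested. Genes were called at an adjusted p up to 0.05 with a change of 1 or more, up or down, on the log2 scale. The fit was tested on simulated data. Domains were matched by 15 KRAB and 20 SCAN positions in translated GENCODE vM39 transcripts. Python 3.11.15 read the sequences.

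The members, gene lists and tests were chosen with earlier results of these data known. Genes named are Zkscan16, all called members, up to 5 members per direction and comparison with the smallest p among those whose groups did not overlap, the 3 highest and 3 lowest levels, the closest paralogs, Trim28 and Setdb1. Same-numbered libraries deviated together only in APB5+Mino against APB5, with correlations of 0.12 to 0.17. The reported fits used no pairing, there or elsewhere, and the number entered only as a block among the alternatives. At 52740545 to 59411044 counts per library, 3 counts equal about 0.05 CPM. Alternatives were RLE scaling, library size only, DESeq2 1.42.0, other count filters, all libraries in the fit, the replicate block, an Xist covariate, a GC and length offset and leaving out each library.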

Additional observations from a re-analysis of the deposited data

Results flagged for a closer look

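The 2 results below were picked out because every library of one contrast moved opposite to every library of the other. The share of all genes with this pattern was not counted, so nothing is read from the number of members that show it. Of all genes, 7.86% lay wholly below in APB5 against IgG and 18% wholly above in APB5+Mino against IgG+Mino. For Zscan29, a SCAN gene, the log2 fold change with APB5 was -0.60 without minocycline, where all APB5 libraries lay below IgG, and 0.30 under minocycline, where all APB5+Mino libraries lay above IgG+Mino, a difference of 0.90. For Zfp930, a KRAB gene, the values were -0.22 and 0.15, a difference of 0.37. Neither gene was called in the interaction fit over all 12 libraries, and no p is given because the APB5+Mino libraries were used to choose the members. APB5 replicate 3, at 16.5 CPM of Zscan29, set most of the first value, and without it the log2 fold change with APB5 was -0.24.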

How the results depend on the processing

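Counts of members called higher are given here with the share of all genes called higher in the same fit in brackets. In APB5+Mino against APB5, the 3 members called became 6 at any fold (2.79%), 0 with library size only (0%) and 6 with DESeq2 (2.58%). The count was 6 with all 12 libraries in the fit (2.29%), 0 with the replicate block (0%) and 9 with the Xist covariate (3.19%). It was 1 with the GC and length offset (0.814%) and 0 with that offset and the block (0%). When 1 library was left out it was 0 to 10 (0% to 3.57%). Against IgG+Mino, the 1 member called became 15 at any fold (4.8%), 0 with all 12 libraries (0%) and 0 with the Xist covariate (0%). When 1 library was left out it became 0 to 2 (0% to 1.38%). In the interaction, 0 became 3 with DESeq2 (0.735%), 1 without a count filter (0.0228%) and 0 to 1 when 1 library was left out, and the median of 0.37 ranged from 0.19 to 0.42. In APB5 against IgG, the Xist covariate gave 1 call higher and 1 lower, beside 4.99% and 0.584% of all genes. Zkscan16 changed sign in APB5 against IgG, at 0.084 with the Xist covariate and -0.33 to 0.040 with 1 library left out (0.0016 without IgG replicate 2 and 0.040 without APB5 replicate 1), and in IgG+Mino against IgG, at 0.029 with the covariate. It passed no test there. The cause of these changes was not tested. Of the values that answer a comparison, 228 of the alternatives kept them and 25 moved them. Many of these values are counts of 0 members called, and a count that stayed at 0 was taken as kept. The tally therefore does not describe the counts above 0. The replicate block changed no other count of members called. The same replicate numbers mark no stated litter or batch. In APB5 and in APB5+Mino, replicate 3 alone had high Xist counts, so replicate 3 and sex cannot be told apart in that comparison. Counts with 3 libraries a group limit the precision, and the low members have few counts, with 17 at most in Zfp978.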

Other observations

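Genes that act beside KRAB proteins in keeping DNA methylation were measured as well. Of 4 DNA methylation genes (Dnmt1, Dnmt3a, Dnmt3b and Uhrf1), 0 passed the call in edgeR in any comparison, and in APB5+Mino against APB5 the median log2 fold change was 0.33, with Dnmt3b at 0.010. Without APB5 replicate 3 the median was 0.27, with 3 of 4 above 0 and Dnmt3b wholly below at -0.19. Zfp57 and Zfp445, the KRAB zinc finger genes that protect imprints, had log2 fold changes of -0.11 and 0.82 against APB5 and of 0.37 and 0.62 against IgG+Mino, where both lay wholly above, beside 18% of all genes. Neither passed the call in these comparisons.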
